A study of Homo sapiens with 60 samples.

Results

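The 35 genes described here encode lysosomal enzymes other than peptidases (glycosidases, sulfatases, lipid and nucleic acid hydrolases) and proteins that activate or assist them. They were chosen by name, and all 35 were found once each among the 42141 genes of the deposited table. The table holds RNAseq values in CPM (reads of a gene per 1000000 reads of its library) from 5 lines of HEK293-EBNA1-6E cells, derived from human embryonic kidney and expressing EBNA1, a viral protein. The groups were ALG6-/- cells, the double knockouts ALG6/UGGT1-/- and ALG6/UGGT2-/-, the triple knockout ALG6/UGGT1/UGGT2-/-, all made by CRISPR/Cas9 editing, and unedited WT cells, with 3 biological replicates each and 48 hours of culture before lysis. All 4 edited lines lack ALG6, a glucosyltransferase that acts on the N-glycan precursor before its transfer to protein, and the multiple knockouts lack in addition UGGT1, UGGT2 or both, the enzymes that put a glucose back on N-glycans of misfolded glycoproteins. Each edited genotype was represented by 1 line grown from a colony of a single cell, so clone and genotype cannot be told apart.

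Lysosomal hydrolases are made as N-glycosylated precursors in the endoplasmic reticulum (ER), where the calnexin and calreticulin lectins assist their folding. Most then receive a mannose 6-phosphate tag in the Golgi and are sorted to the lysosome, where they take apart glycoproteins, glycosaminoglycans, glycolipids, glycogen and lipid esters. Loss of single enzymes of this group causes lysosomal storage diseases, and the transcription factor TFEB and its relatives bind a palindromic promoter element (the CLEAR element, built on the letters CACGTG) in front of many of these genes.

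The core of that element was therefore searched in promoters from RefSeq (GRCh38.p14), each from 250 bases before to 50 after a gene start. Of the 35 genes, 26 matched the promoter table, with 35 promoters among them. The letters TCACGTGA, which read the same on both strands and contain CACGTG, stood in promoters of 3 members (GAA, GALNS and PLBD2), or 8.57% of member promoters, against 1.56% of the promoters of tested genes and 0.98% of all 35116 promoters in the table. CACGTG, also the same on both strands, stood in promoters of 6 members (17.1% of member promoters, against 9.24% of those of tested genes and 7.26% of all). The 6 windows are shown so that the levels of these genes can be read beside them, 5′ to 3′ on the gene's strand, with 20 bases on each side of the letters found, which are in capitals.
GAA (chr17:80101484-80101531, plus strand): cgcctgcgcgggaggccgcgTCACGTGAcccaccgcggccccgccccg
GALNS (chr16:88857095-88857142, minus strand): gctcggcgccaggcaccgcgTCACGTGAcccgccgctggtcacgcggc
PLBD2 (chr12:113358542-113358589, plus strand): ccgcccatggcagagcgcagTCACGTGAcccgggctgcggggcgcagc
NEU1 (chr6:31862922-31862967, minus strand): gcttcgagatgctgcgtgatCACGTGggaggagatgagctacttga
ARSB (chr5:78986093-78986138, minus strand): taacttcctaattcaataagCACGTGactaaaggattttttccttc
SUMF1 (chr3:4467257-4467302, minus strand): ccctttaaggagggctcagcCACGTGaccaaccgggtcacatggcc
In this order the capitals began at -77, -175, -25, -126, -160 and -13 from the start that RefSeq gives that promoter, which can differ from the outer bounds of the gene in GENCODE printed below. In the deposited CPM the 6 genes were not called in the same lines. NEU1 and PLBD2 were higher in ALG6-/- cells than in WT cells, and NEU1 also in ALG6/UGGT1-/- and triple knockout cells. ARSB was higher in ALG6/UGGT1-/- cells and SUMF1 in triple knockout cells. GAA was lower in ALG6/UGGT2-/- and triple knockout cells, and GALNS passed no test against WT cells. After the median ratio rescaling described below, NEU1, PLBD2, ARSB and GAA were called higher in ALG6-/- than in WT cells, and GALNS and SUMF1 were not called. That rescaling lost the calls of NEU1 in ALG6/UGGT1-/- (adjusted p = 0.407), GAA in ALG6/UGGT2-/- (0.464) and SUMF1 in triple knockout cells (0.131). It kept those of ARSB in ALG6/UGGT1-/- cells and of NEU1 and GAA in triple knockout cells. Such a match is a description of letters and not evidence of binding.

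With the most frequent value above 0 in each library taken as 1 read, 1 CPM stood for 23.6 to 27.2 estimated reads. ALG6 mRNA was at 1.03 to 1.29 CPM in ALG6-/- cells and at 2.27 to 5.87 CPM in the multiple knockouts, against 12.7 to 15.6 CPM in WT cells. UGGT1 mRNA had 18 to 28.9 CPM in ALG6/UGGT1-/- cells and 31.0 to 33.1 CPM in triple knockout cells, against 43.1 to 79.8 CPM in WT cells, and neither difference passed the test (adjusted p = 0.0572 and 0.134). ALG6-/- cells, in which UGGT1 was not edited, had 83.9, 13.1 and 34.4 CPM of UGGT1 mRNA and overlapped with both UGGT1-edited lines. UGGT2 mRNA overlapped between the edited UGGT2 lines and WT cells, and was lower in ALG6-/- than in WT cells (log2 fold change -0.72, adjusted p = 0.0279). An mRNA level does not measure the loss of the protein. Of 6 genes typical of HEK293 cells, 5 had at least 1 CPM in every library, and NEFM was below that. The 7 macrophage markers summed to 0.39 to 1.17 CPM in every library, and the 6 fibroblast markers summed to 38.6 to 77.6 CPM, nearly all from COL1A1, with COL1A2 and THY1 at or near 0. The ALG6-/- libraries and WT replicate 3 stood apart: the median ratio of their values to the average library was 0.669 to 0.916 and 0.941, against 1.00 to 1.16 in the other 11 libraries. In such bulk samples fewer cells of a kind and less RNA per cell cannot be told apart.

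Genes were kept if 3 or more of the 15 libraries reached 1 CPM. All 35 members and 14692 genes in all were so tested with limma on log2(CPM + 0.5). All fold changes below are on that scale, which understates the change of low genes, and adjusted p-values (Benjamini-Hochberg) run over all genes tested. Where nothing else is said, a gene rose or fell if its adjusted p was below 0.05. Of the 35 members, 28 differed among the 5 cell lines (80%), against 81.2% of all genes tested. FUCA1, MANBA, SIAE, IDS, GALNS, ASAH1 and LIPA did not pass that test. Per length of transcript, PSAP was by far the most abundant member, at 248 CPM per kilobase in WT cells, followed by GLA (74.6), PPT1 (56.5), FUCA2 (54.4) and GAA (54.4). GLA overlaps RPL36A, a ribosomal protein gene on the other strand with a mean of 1135 CPM, and the part of its reads in the level of GLA was not tested. MANBA (1.85) and GALC (0.868) were the lowest. The 35 genes together summed to 3656, 4209 and 3929 CPM in ALG6-/- cells, and the other 12 libraries to between 2231 and 2612 CPM. An exact two-sided permutation test of this sum gave p = 0.1 for ALG6-/- against WT cells, the smallest p that 3 against 3 replicates allow. PSAP took 39.4 to 43.3% of the sum in ALG6-/- libraries and 23.8 to 30.4% in the others. Without PSAP the sum was still 2216 to 2387 CPM in ALG6-/- cells, against 1738 to 1869 CPM in WT cells.

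**Figure D1:**
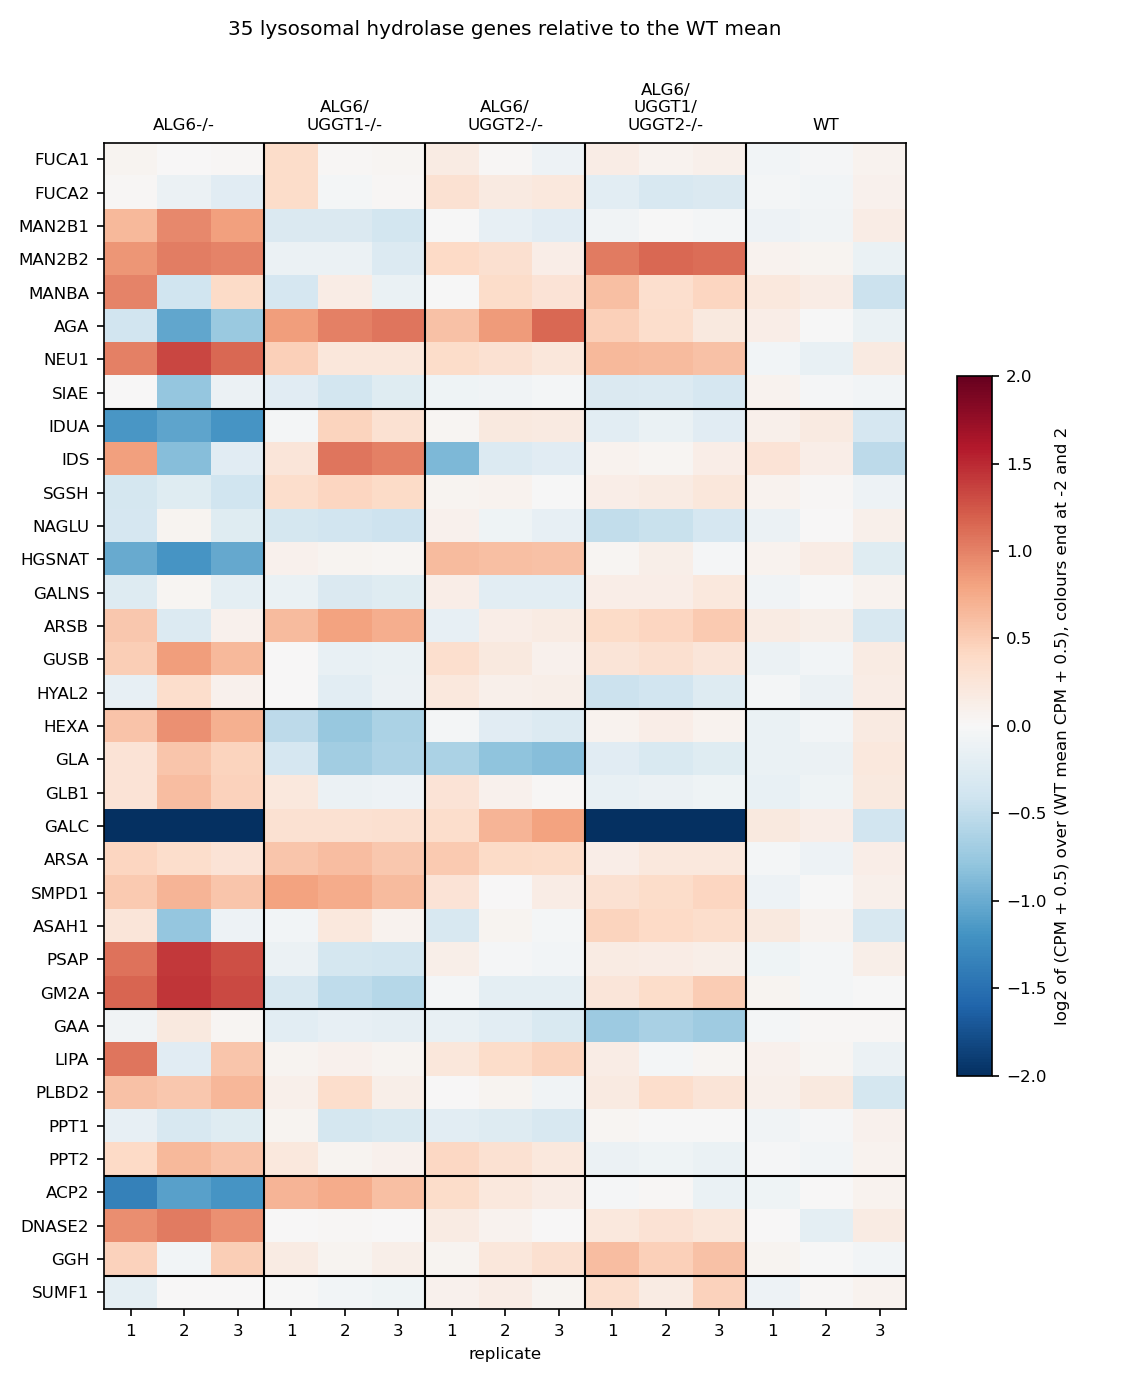
Heat map of all 35 genes (rows, by role, black lines between roles) in the 15 libraries (columns, replicates 1 to 3 of each line), coloured by the log2 of CPM + 0.5 over the WT mean + 0.5, with colours ending at -2 and 2. PSAP, GM2A and NEU1 were high in ALG6-/- libraries, ACP2, IDUA and HGSNAT low, and GALC was listed at 0 in ALG6-/- and triple knockout libraries.

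The first question was which of these mRNAs differed in cells that lack ALG6 alone. In ALG6-/- against WT cells 14 members rose (40.0% of them, against 15.1% of all genes) and 7 fell (20%, against 45.7% of all genes). The activator proteins GM2A and PSAP, the sialidase NEU1, the mannosidases MAN2B1 and MAN2B2 and the nuclease DNASE2 rose most, and the phosphatase ACP2, the iduronidase IDUA, the acetyltransferase HGSNAT and GALC, listed at 0, were lowest. The median log2 fold change was 0.14 over the members, and the same with GALC set to a floor of 3 reads, against -0.44 over all genes. Rescaling each library by its median ratio moved the median of all genes to -0.04 and the split of the members to 21 higher and 4 lower, beside 26.6% of all genes higher and 25.6% lower. With log2 values corrected for transcript length and GC, 23 members were higher and 5 lower, beside 32.7% of all genes higher and 29.0% lower. Across 13357 genes, which are not independent replicates, fold changes in this comparison had a Spearman rho of -0.32 with length and of 0.41 with GC content. The members' median transcript was 2705 bases long with 51.2% GC, against 3621 bases and 48.7% for genes tested. Without WT replicate 3 and ALG6-/- replicate 2, an alternative chosen after the values were seen, 16 members rose and 7 fell, beside 14.8% and 47.0% of all genes. SGSH and PPT1 did not keep their direction under median ratio rescaling, and AGA did not keep its call. ACP2, IDUA and HGSNAT kept theirs, with smaller log2 fold changes of -0.78, -0.71 and -0.63. FUCA1, MANBA, ARSB, HYAL2, GAA, LIPA and GGH, not called in the deposited CPM, were called higher after rescaling.

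**Figure D2:**
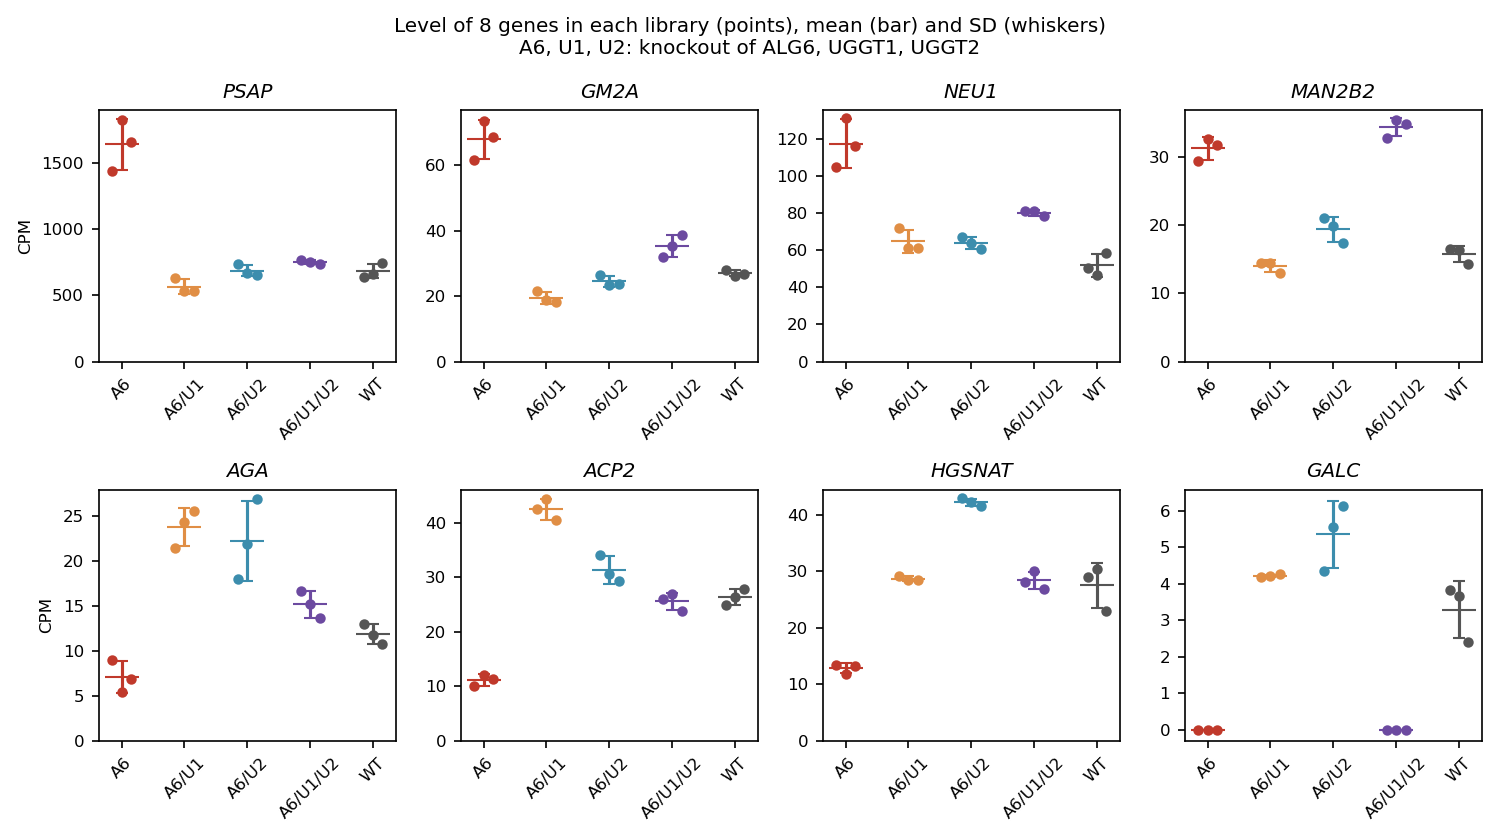
CPM of 8 members in each library (points), with the mean (bar) and SD (whiskers, n = 3), for knockout of ALG6 (A6), with UGGT1 (A6/U1), with UGGT2 (A6/U2), with both (A6/U1/U2), and for WT cells. PSAP had 1439.8 to 1822 CPM in ALG6-/- cells, against 641 to 741 CPM in WT cells, and GALC was at 0 in all 6 libraries of the ALG6-/- and triple knockout lines.

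Among the 9 genes for the breakdown of glycosphingolipids and their activators, 7 rose and 1 fell in ALG6-/- against WT cells. Of all genes 15.1% rose and 45.7% fell. After rescaling 7 of the 9 were higher and 1 lower, beside 26.6% and 25.6% of all genes. GM2A (chr5:151212150-151270440, GRCh38) encodes the activator that lifts ganglioside GM2 out of the membrane for hexosaminidase A. GM2A had 61.5, 73.6 and 68.6 CPM in ALG6-/- cells, 21.6, 18.8 and 18.1 in ALG6/UGGT1-/- cells, 26.4, 23.5 and 23.6 in ALG6/UGGT2-/- cells, 31.9, 35.2 and 38.6 in the triple knockout cells and 28, 26.3 and 26.9 in WT cells. The 3 ALG6-/- libraries lay above all others, at 67.9 ± 6.08 CPM against 27 ± 0.9 CPM in WT cells (SD, n = 3 each; log2 fold change 1.31, SE 0.10, adjusted p = 4.59e-07). Relative to the median of all genes the difference was 1.75.

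PSAP (chr10:71816298-71851251) encodes prosaposin, the precursor of the saposins that present sphingolipids to their hydrolases. PSAP had 1439.8, 1822 and 1661 CPM in ALG6-/- cells, 629, 536 and 530.2 in ALG6/UGGT1-/- cells, 738, 669 and 656 in ALG6/UGGT2-/- cells, 766, 753 and 738 in the triple knockout cells and 641, 663 and 741 in WT cells. It rose in ALG6-/- against WT cells (log2 fold change 1.26, SE 0.09, adjusted p = 3.77e-07), and no ALG6-/- library overlapped with any other library. In ALG6/UGGT1-/- cells its values of 629, 536 and 530.2 CPM gave a log2 fold change of -0.27 against WT cells that did not pass the test (adjusted p = 0.0528).

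HEXA, the α subunit of β-hexosaminidase, moved in opposite directions in these lines. HEXA had 163, 206 and 180.4 CPM in ALG6-/- cells, 76.2, 64.3 and 70.5 in ALG6/UGGT1-/- cells, 106, 93.9 and 90.1 in ALG6/UGGT2-/- cells, 115, 120.0 and 115 in the triple knockout cells and 99.5, 105 and 124 in WT cells. It rose in ALG6-/- cells (log2 fold change 0.74, SE 0.11, adjusted p = 8.41e-05) and fell in ALG6/UGGT1-/- cells (log2 fold change -0.63, SE 0.11, adjusted p = 0.000979), both against WT cells. GLA encodes the α-galactosidase that cleaves globotriaosylceramide. GLA had 158, 191 and 177 CPM in ALG6-/- cells, 103, 80.1 and 84.7 in ALG6/UGGT1-/- cells, 83.7, 74.4 and 71.5 in ALG6/UGGT2-/- cells, 111, 105 and 110.1 in the triple knockout cells and 119, 120.3 and 151 in WT cells. It was lower in ALG6/UGGT2-/- cells (71.5 to 83.7 CPM) and in ALG6/UGGT1-/- cells (80.1 to 103 CPM) than in WT cells (119 to 151 CPM), with log2 fold changes of -0.75 and -0.54 (adjusted p = 0.000969 and 0.0048). With rescaling the second of these had an adjusted p of 0.0604. GLB1, the β-galactosidase of GM1, was 172 ± 19.9 CPM in ALG6-/- cells and 126 ± 16.6 CPM in WT cells (SD, n = 3 each; log2 fold change 0.46, SE 0.12, adjusted p = 0.00565).

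Arylsulfatase A (ARSA), which removes sulfate from sulfatide, had 34 to 35.8 CPM in ALG6/UGGT1-/- cells, above the 21.6 to 25.3 CPM of WT cells, and rose in the ALG6-/-, ALG6/UGGT1-/- and ALG6/UGGT2-/- lines against WT cells (0.35, 0.58 and 0.42 on the log2 scale). The call in ALG6/UGGT2-/- cells was lost with rescaling (adjusted p = 0.139). In triple knockout cells its change was 0.19 (adjusted p = 0.0883). SMPD1, the acid sphingomyelinase, had 15.5, 14.8 and 13.7 CPM in ALG6/UGGT1-/- cells, against 8.04, 8.62 and 9.38 CPM in WT cells (log2 fold change 0.73, SE 0.10, adjusted p = 0.000245). With quantile normalization that difference had an adjusted p of 0.0565. ASAH1, the acid ceramidase, was spread widely in ALG6-/- cells (31.2, 15.3 and 24.5 CPM), in the same order of libraries as their median ratios of 0.916, 0.669 and 0.795. The part of these ratios in the result was not tested.

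GALC (chr14:87837820-87993665, minus strand) encodes galactosylceramidase, which breaks down galactosylceramide and psychosine. It was listed at 0 in all 3 ALG6-/- libraries and in all 3 triple knockout libraries. ALG6/UGGT1-/- cells had 4.2, 4.21 and 4.26 CPM, ALG6/UGGT2-/- cells 4.35, 5.57 and 6.14 CPM and WT cells 3.82, 3.66 and 2.39 CPM. These 9 libraries hold an estimated 60 to 158 reads of GALC each. In the 6 libraries at 0, 3 reads would have been at most 0.127 CPM. Those 3 reads were set as an approximate upper limit for a count of 0 (counting error only) and are not a hard maximum. Of all genes in the table, GALC was the only 1 listed at 0 in all 6 of these libraries with at least 1 CPM in each of the other 9. None of 6 genes used by every cell was at 0, and all had 985 CPM or more in every library. The nearest genes on either side with a mean of at least 5 CPM had values above 0 in these 6 libraries. FLRT2 had 1.14 to 4.20 CPM in ALG6-/- cells, 15.4 to 17.6 CPM in triple knockout cells and 4.87 to 14.4 CPM in WT cells. PTPN21 had 1.40 to 5.98 CPM in ALG6-/- cells, 11.6 to 11.9 CPM in triple knockout cells and 5.07 to 11 CPM in WT cells. No fold change is given for GALC against the lines at 0. In ALG6/UGGT2-/- against WT cells GALC rose (log2 fold change 0.64, SE 0.15, adjusted p = 0.0139). The call was lost when only the lines compared were fitted (adjusted p = 0.133) and with the length and GC correction (0.0775). Leaving out ALG6/UGGT2-/- replicate 2 or 3 did not keep it either (0.0555 and 0.0674).

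Among the 8 genes for the breakdown of glycoprotein glycans, 3 rose and 1 fell in ALG6-/- against WT cells. Of all genes 15.1% rose and 45.7% fell. After rescaling 5 of the 8 were higher and 0 lower, beside 26.6% and 25.6% of all genes. NEU1 (chr6:31857659-31862905) encodes the lysosomal sialidase, which removes terminal sialic acid and works in a complex with the protective protein cathepsin A. NEU1 had 105, 131 and 116 CPM in ALG6-/- cells, 72.2, 61.2 and 61.2 in ALG6/UGGT1-/- cells, 67.4, 64.1 and 60.9 in ALG6/UGGT2-/- cells, 81.4, 81 and 78.4 in the triple knockout cells and 50.3, 46.9 and 58.8 in WT cells. Each of the 12 libraries from edited lines lay above the 3 WT libraries. The gene rose in ALG6-/- cells (log2 fold change 1.17, SE 0.10, adjusted p = 1.48e-06), in triple knockout cells (0.63, SE 0.10, adjusted p = 0.000402) and in ALG6/UGGT1-/- cells (0.32, SE 0.10, adjusted p = 0.0395), while the 0.31 of ALG6/UGGT2-/- cells did not pass (adjusted p = 0.0694). With rescaling the ALG6/UGGT1-/- difference had an adjusted p of 0.407.

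MAN2B2 (chr4:6575189-6623362), an α-mannosidase of the lysosome, was high in both ALG6-/- and triple knockout cells. MAN2B2 had 29.4, 32.6 and 31.7 CPM in ALG6-/- cells, 14.5, 14.4 and 12.9 in ALG6/UGGT1-/- cells, 21, 19.9 and 17.4 in ALG6/UGGT2-/- cells, 32.8, 35.4 and 34.8 in the triple knockout cells and 16.5, 16.4 and 14.3 in WT cells. Every library of these 2 lines lay above every library of the rest. It rose in triple knockout cells (log2 fold change 1.10, SE 0.09, adjusted p = 2.9e-06) and in ALG6-/- cells (0.97, SE 0.09, adjusted p = 3.58e-06), both against WT cells. MAN2B1, the major lysosomal α-mannosidase, rose in ALG6-/- cells, with 216 to 269 CPM against 129 to 153 CPM in WT cells (log2 fold change 0.81, SE 0.09, adjusted p = 1.01e-05). In triple knockout cells MAN2B1 was within the WT range at 132 to 137 CPM (-0.03 on the log2 scale).

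AGA, the aspartylglucosaminidase that splits the sugar from asparagine, was lowest in ALG6-/- cells and highest in the double knockouts. AGA had 8.97, 5.47 and 6.82 CPM in ALG6-/- cells, 21.4, 24.3 and 25.5 in ALG6/UGGT1-/- cells, 17.9, 21.8 and 26.8 in ALG6/UGGT2-/- cells, 16.6, 15.2 and 13.7 in the triple knockout cells and 12.9, 11.8 and 10.7 in WT cells. It was lower in ALG6-/- cells (log2 fold change -0.72, SE 0.18, adjusted p = 0.00377) and higher in ALG6/UGGT1-/- cells (0.98, SE 0.18, adjusted p = 0.00154) and ALG6/UGGT2-/- cells (0.87, SE 0.18, adjusted p = 0.00578). The fall in ALG6-/- cells was -0.31 with an adjusted p of 0.0601 after rescaling and -0.07 with the length and GC correction. FUCA2, a fucosidase, passed no test against WT cells (125 to 138 CPM), with 104 to 112 CPM in triple knockout cells and 148 to 159.9 CPM in ALG6/UGGT2-/- cells. The fucosidase FUCA1 (34.3 to 37.4 CPM in WT cells), the β-mannosidase MANBA (5.67 to 9.17 CPM) and the sialate esterase SIAE (11.5 to 12.7 CPM) passed no test. MANBA had 16.1, 5.85 and 10.4 CPM in ALG6-/- cells, in the order of the median ratios of these libraries.

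Among the 9 genes for glycosaminoglycan breakdown, 1 rose and 3 fell in ALG6-/- against WT cells. Of all genes 15.1% rose and 45.7% fell. After rescaling 3 of the 9 were higher and 2 lower, beside 26.6% and 25.6% of all genes. HGSNAT, the membrane enzyme that acetylates heparan sulfate, had 13.5, 11.9 and 13.3 CPM in ALG6-/- cells, against 29, 30.5 and 23.1 CPM in WT cells (log2 fold change -1.06, SE 0.10, adjusted p = 2.68e-06). It had 42.9, 42.2 and 41.6 CPM in ALG6/UGGT2-/- cells, above every library of every other line (log2 fold change 0.62, SE 0.10, adjusted p = 0.00127 against WT cells). ALG6/UGGT1-/- and triple knockout libraries, at 28.4 to 29.2 CPM and 26.9 to 30 CPM, overlapped with WT cells.

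IDUA (chr4:986997-1004564), the α-iduronidase of dermatan and heparan sulfate, had 5.21, 5.72 and 5.17 CPM in ALG6-/- cells, 12, 17.1 and 15.4 in ALG6/UGGT1-/- cells, 12.7, 14.3 and 14 in ALG6/UGGT2-/- cells, 10.6, 11.2 and 10.5 in triple knockout cells and 13.3, 14 and 9.74 in WT cells. The ALG6-/- values lay below all others (log2 fold change -1.12, SE 0.15, adjusted p = 4.4e-05 against WT cells), and none of the other 3 edited lines passed the test against WT cells. SGSH, the heparan sulfamidase, fell in ALG6-/- cells by 0.33 on the log2 scale (adjusted p = 0.00128), but was at 0.10 after rescaling. It rose in ALG6/UGGT1-/- cells (58.1 to 61.6 CPM, against 42.4 to 47.5 CPM in WT cells; log2 fold change 0.39, SE 0.07, adjusted p = 0.00124), a difference that rescaling did not keep (adjusted p = 0.12).

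The sulfatase ARSB, which acts on dermatan sulfate, had 21.3, 24.2 and 22.8 CPM in ALG6/UGGT1-/- cells, against 15.3, 14.8 and 10.7 CPM in WT cells (log2 fold change 0.74, SE 0.19, adjusted p = 0.013). Leaving out WT replicate 3 or ALG6/UGGT1-/- replicate 2 gave adjusted p-values of 0.0508 and 0.0504. The β-glucuronidase GUSB rose in ALG6-/- cells, with 154 ± 18.4 CPM against 96.7 ± 9.92 CPM in WT cells (SD, n = 3 each; log2 fold change 0.67, SE 0.10, adjusted p = 0.000116). NAGLU, a glucosaminidase of heparan sulfate, had 40.1, 41.4 and 44.4 CPM in triple knockout cells and 52.1, 56.6 and 60.8 CPM in WT cells (log2 fold change -0.42, SE 0.10, adjusted p = 0.0067). HYAL2, a hyaluronidase, had 32.6, 34 and 37.1 CPM in triple knockout cells and 43.1, 40.9 and 49.1 CPM in WT cells (log2 fold change -0.35, SE 0.12, adjusted p = 0.0357). Both fell without overlap, and under median ratio rescaling neither passed (adjusted p = 0.164 and 0.299). HYAL2 also lost its call without triple knockout replicate 1 or 2, or without WT replicate 1 or 3 (adjusted p = 0.118, 0.0932, 0.0636 and 0.126). Iduronate sulfatase (IDS) spread over 58.8, 18.2 and 28.5 CPM in ALG6-/- cells and passed no test. GALNS, a sulfatase of keratan sulfate, passed none against WT cells, at 6.66 to 8.31 CPM in ALG6-/- cells and 7.72 to 8.58 CPM in WT cells.

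**Figure D3:**
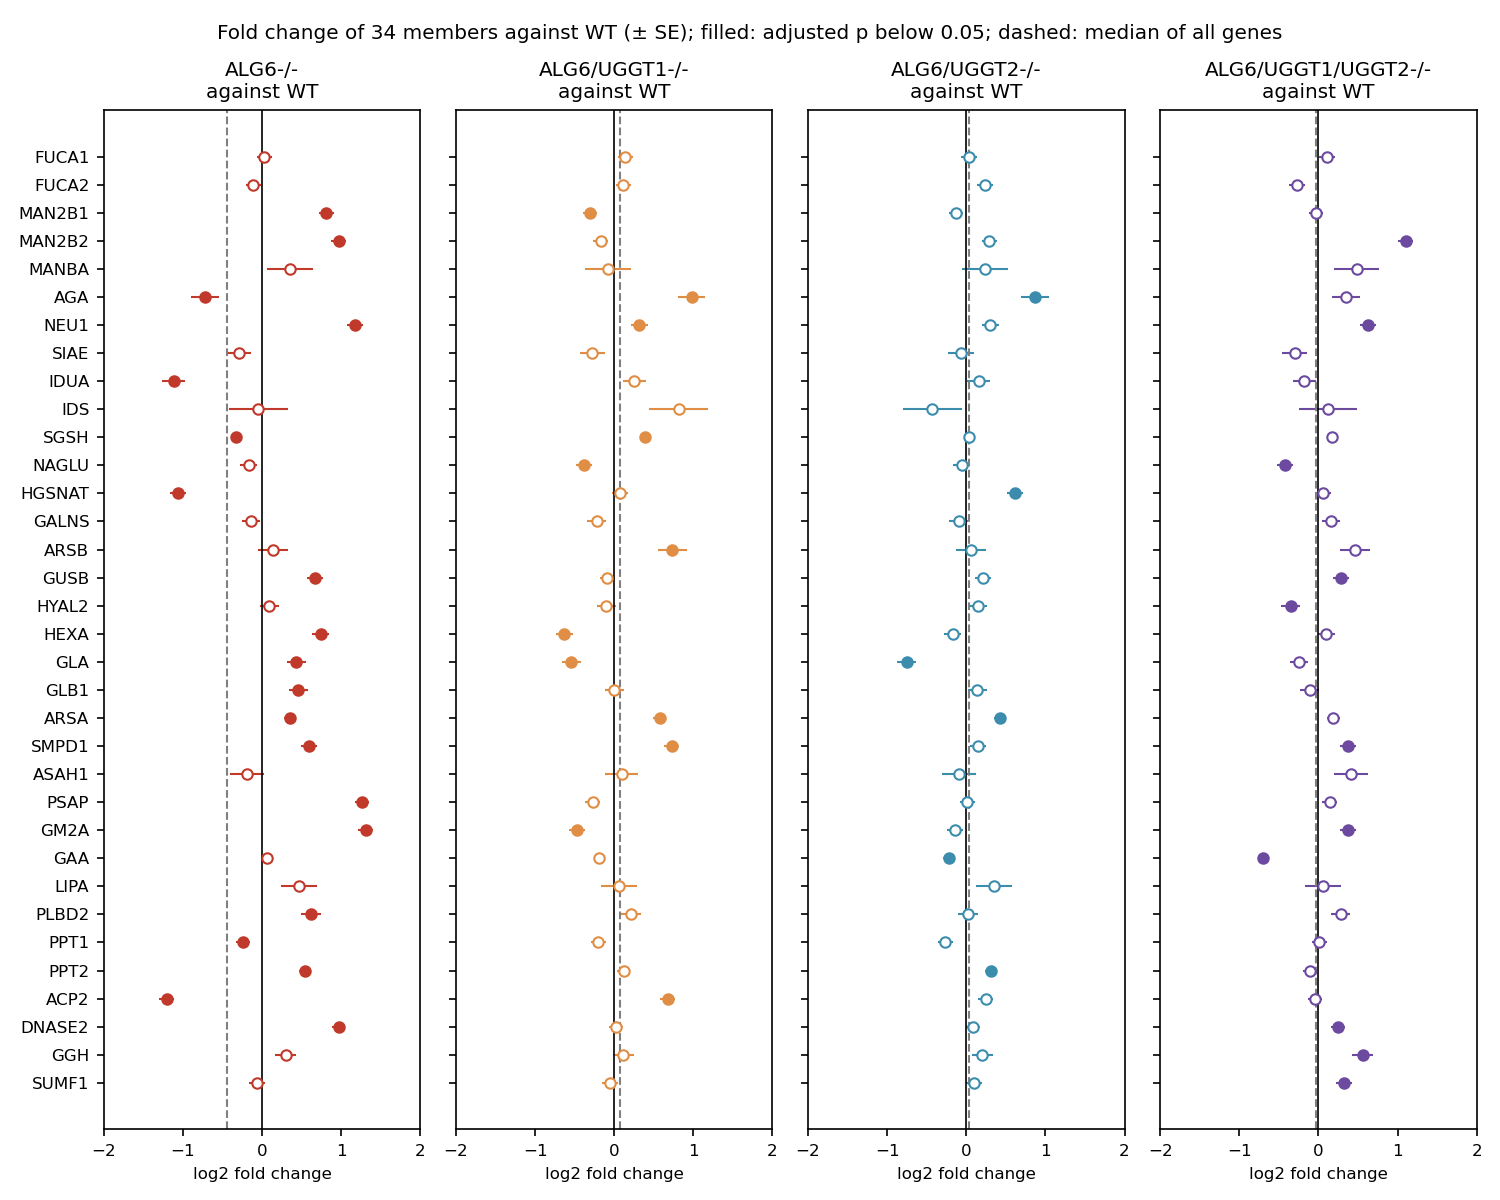
Log2 fold change (± SE) of 34 members (rows) against WT cells in the 4 edited lines, filled where the adjusted p was below 0.05, with the median of all genes dashed. GALC is left out because it was listed at 0 in 2 lines. In ALG6-/- cells GM2A stood at 1.31 and ACP2 at -1.21, while the median of all genes was -0.44.

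Of the 5 hydrolases of glycogen, neutral lipids and thioesters, PLBD2 and PPT2 rose and PPT1 fell in ALG6-/- against WT cells. Of all genes 15.1% rose and 45.7% fell. After rescaling 4 of the 5 were higher and 0 lower, beside 26.6% and 25.6% of all genes. GAA (chr17:80101533-80119881), the acid α-glucosidase of glycogen, had 123, 129.6 and 125 CPM in triple knockout cells, against 198, 207 and 207 CPM in WT cells, with no overlap (log2 fold change -0.70, SE 0.07, adjusted p = 7.92e-06). Triple knockout values also lay below those of the other 3 edited lines, which ranged from 165 to 235 CPM. The smaller fall in ALG6/UGGT2-/- cells (-0.22, adjusted p = 0.0494) was lost in most alternatives. PLBD2, a phospholipase B-like protein, had 63 to 69 CPM in ALG6-/- cells and 33.7 to 49.6 CPM in WT cells (log2 fold change 0.62, SE 0.13, adjusted p = 0.00117). The thioesterase PPT2 rose by 0.54 on the log2 scale (adjusted p = 9.17e-05) and its relative PPT1, which removes palmitate from proteins, fell by 0.24 (adjusted p = 0.0406). PPT1 was at 0.19 after rescaling. The acid lipase LIPA, with 97.1, 39.4 and 67.9 CPM in ALG6-/- cells and 48.9, 47.2 and 42.4 CPM in WT cells, had a log2 fold change of 0.47 that did not pass the test (adjusted p = 0.0926). It was called higher after rescaling (0.90, adjusted p = 0.000448), with the length and GC correction (1.08, adjusted p = 5.77e-07) and without WT replicate 3 and ALG6-/- replicate 2 (0.75, adjusted p = 0.000811). Of the 35 members, 10 ran over the ALG6-/- replicates in the order of the median ratios, LIPA, IDS, MANBA and ASAH1 among them, and 17 in the reverse order, among them PSAP, GM2A, NEU1, HEXA and MAN2B1.

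Of the 3 hydrolases of nucleic acids, phosphate esters and folate, DNASE2 rose and ACP2 fell in ALG6-/- against WT cells. Of all genes 15.1% rose and 45.7% fell. After rescaling 2 of the 3 were higher and 1 lower, beside 26.6% and 25.6% of all genes. ACP2 (chr11:47239302-47248906) encodes a lysosomal acid phosphatase. ACP2 had 10.1, 12.1 and 11.4 CPM in ALG6-/- cells, 42.6, 44.3 and 40.5 in ALG6/UGGT1-/- cells, 34.2, 30.6 and 29.3 in ALG6/UGGT2-/- cells, 26, 26.9 and 23.9 in the triple knockout cells and 24.9, 26.5 and 27.8 in WT cells. The ALG6-/- libraries lay below and the ALG6/UGGT1-/- libraries above all others, and the gene fell in ALG6-/- cells (log2 fold change -1.21, SE 0.09, adjusted p = 5e-07) and rose in ALG6/UGGT1-/- cells (0.68, SE 0.09, adjusted p = 0.000241). DNASE2, the acid endonuclease, had 71.7, 77.6 and 70.6 CPM in ALG6-/- cells and 37.5, 32.8 and 41.9 CPM in WT cells (log2 fold change 0.97, SE 0.09, adjusted p = 1.72e-06). GGH, which trims folate polyglutamates, had 30.2, 27.2 and 29.3 CPM in triple knockout cells and 20.3, 19.4 and 18.6 CPM in WT cells (log2 fold change 0.56, SE 0.13, adjusted p = 0.00519). SUMF1, the ER enzyme that activates all sulfatases by making their formylglycine, rose in triple knockout cells (10.3 to 12.7 CPM, against 8.48 to 9.62 CPM in WT cells; log2 fold change 0.32, SE 0.10, adjusted p = 0.0268), which rescaling did not keep (adjusted p = 0.131).

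Over the members, ALG6/UGGT1-/- against WT cells gave 7 higher (20%, against 10.3% of all genes) and 5 lower (14.3%, against 13.8%). AGA, ARSB and SMPD1 rose most and HEXA, GLA and GM2A fell most, the last with 18.1 to 21.6 CPM against 26.3 to 28 CPM in WT cells (log2 fold change -0.47, SE 0.10, adjusted p = 0.00461). After rescaling 5 were higher and 1 lower, beside 7.35% of all genes higher and 8.29% lower, and GM2A had an adjusted p of 0.0553. ALG6/UGGT2-/- against WT cells gave 5 higher (14.3%, against 6.14%) and 2 lower (5.71%, against 7.75%). AGA, GALC and HGSNAT rose most and GLA fell most. After rescaling 3 were higher and 1 lower, beside 3.27% of all genes higher and 3.59% lower. Leaving out ALG6/UGGT2-/- replicate 2 gave 4 calls in place of 7, with the share of all genes in that setting not given here.

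Triple knockout against WT cells gave 8 higher (22.9%, against 13.5% of all genes) and 4 lower (11.4%, against 22.0%). MAN2B2, NEU1 and GGH rose most, and GALC, listed at 0, GAA, NAGLU and HYAL2 were lower. After rescaling 6 were higher and 2 lower, beside 12.7% of all genes higher and 15.4% lower. With the length and GC correction 15 were higher and 4 lower, beside 25.6% of all genes higher and 22.5% lower. The median log2 fold change of the members was 0.12, against -0.03 over all genes. Without WT replicate 3 and ALG6-/- replicate 2 the counts were 7 and 7 in ALG6/UGGT1-/- cells, 7 and 2 in ALG6/UGGT2-/- cells, and 9 and 5 in triple knockout cells, higher and lower than WT cells. The shares of all genes were then 12.0 and 16.4%, 7.62 and 10.2%, and 14.1 and 27.1%.

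**Figure D4:**
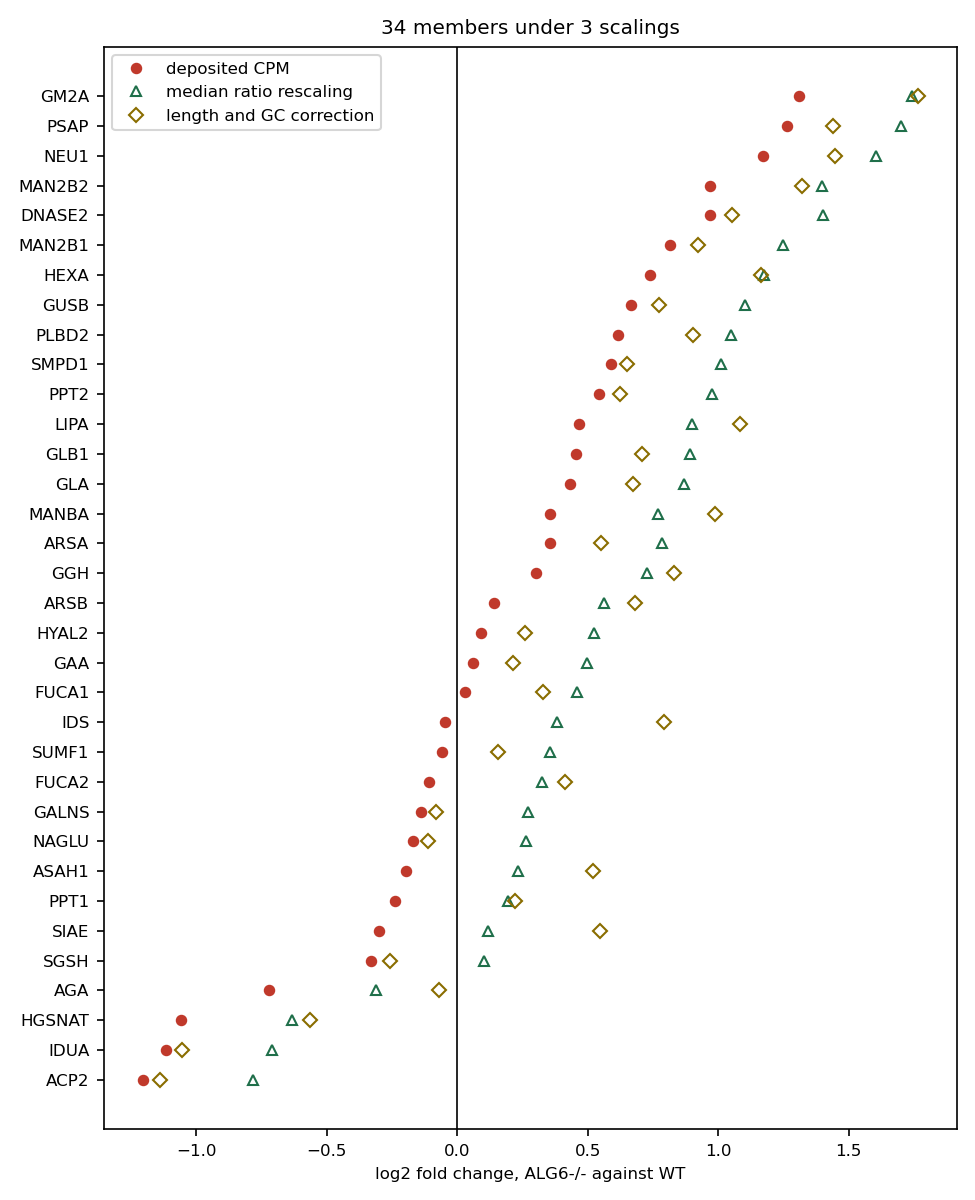
Log2 fold change of 34 members (rows, ordered by value; GALC left out) in ALG6-/- against WT cells from the deposited CPM (circles), after median ratio rescaling (triangles) and with the length and GC correction (diamonds). Rescaling moved GM2A to 1.74 and ACP2 to -0.78, and SGSH and PPT1 to the other side of 0.

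The next question was how the lines that also lack UGGT1, UGGT2 or both differed from ALG6-/- cells. These 3 comparisons share the ALG6-/- libraries with each other and with the comparison of ALG6-/- with WT cells, so their values are given side by side only. Of the 14 members higher in ALG6-/- than in WT cells, 11 were lower in all 3 multiple knockouts than in ALG6-/- cells. Of the 7 lower ones, 5 were higher in all 3. How many of all genes did the same was not counted, and the ALG6-/- libraries enter each of these comparisons. Over all genes, 15.1% rose and 45.7% fell in ALG6-/- against WT cells. No member was called higher, or lower, than in WT cells in all 4 edited lines. PSAP, GLB1 and PLBD2 were called against WT cells in ALG6-/- cells only. In ALG6/UGGT1-/- against ALG6-/- cells 8 members rose (22.9%, against 53.1% of all genes) and 13 fell (37.1%, against 20.4%). In ALG6/UGGT2-/- against ALG6-/- cells 7 rose (20%, against 48.6%) and 14 fell (40.0%, against 18.8%). In triple knockout against ALG6-/- cells 9 rose (25.7%, against 43.5%) and 13 fell (37.1%, against 17.6%). After rescaling, the numbers higher and lower were 5 and 22, 5 and 23, and 4 and 19, while 34.1 and 32.4%, 30.3 and 30.3%, and 26.1 and 28.0% of all genes were higher and lower. The medians over all genes were 0.52, 0.46 and 0.36 on the log2 scale before rescaling, and 0.06, 0.04 and 0.01 after it. Without WT replicate 3 and ALG6-/- replicate 2, 8 and 17, 8 and 15, and 7 and 15 members were higher and lower. The shares of all genes were then 50.9 and 21.2%, 46.1 and 19.9%, and 39.6 and 17.8%.

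Each edited line is 1 clone, so loss of a UGGT and differences between clones cannot be told apart. The GM2 activator and prosaposin fell most in ALG6/UGGT1-/- against ALG6-/- cells. GM2A had a log2 fold change of -1.78 (SE 0.10, adjusted p = 1.73e-08) and PSAP of -1.53 (SE 0.09, adjusted p = 3.49e-08), followed by HEXA at -1.37. ACP2, AGA and IDUA rose most among members with at least 5 CPM, with log2 fold changes of 1.88, 1.70 and 1.37. In ALG6/UGGT2-/- against ALG6-/- cells, GM2A (-1.45), PSAP (-1.25) and GLA (-1.19) fell most. HGSNAT (1.68) and AGA (1.59) rose most there beside GALC, which was at 0 in ALG6-/- cells. In triple knockout against ALG6-/- cells, PSAP (-1.12), GM2A (-0.94) and MAN2B1 (-0.85) fell most, and ACP2 (1.16), HGSNAT (1.11) and AGA (1.07) rose most. AGA kept its call but was at 0.80, 0.87 and 0.56 with the length and GC correction. HGSNAT was at 1.11 with that correction in ALG6/UGGT2-/- cells and at 0.58 in triple knockout cells. IDUA was at 0.90 after rescaling in ALG6/UGGT1-/- cells. The adjusted p-values of these named members were at most 0.000302, and their replicates did not overlap between the lines compared. Rescaling turned round the directions of ARSA in ALG6/UGGT1-/-, FUCA2 and SGSH in ALG6/UGGT2-/-, and GALNS and PPT1 in triple knockout cells. None of these passed the test after rescaling.

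Triple knockout cells were then set against the lines with 1 UGGT left. Against ALG6/UGGT1-/- cells 11 members rose (31.4%, against 19.2% of all genes) and 10 fell (28.6%, against 26.8%). MAN2B2 (log2 fold change 1.27, SE 0.09, adjusted p = 4.05e-07), GM2A (0.84) and HEXA (0.73) rose most. ACP2 (log2 fold change -0.72, SE 0.09, adjusted p = 4.03e-05), AGA (-0.63) and GAA (-0.51) fell most beside GALC. With the length and GC correction AGA was at -0.25. Rescaling gave 8 higher and 3 lower, beside 19.9% of all genes higher and 20.9% lower, with GAA at an adjusted p of 0.0624. Against ALG6/UGGT2-/- cells 5 rose (14.3%, against 14.2%) and 10 fell (28.6%, against 21.7%). MAN2B2 (log2 fold change 0.81, SE 0.09, adjusted p = 3.32e-05), GM2A (0.52) and GLA (0.51) rose, while HGSNAT (log2 fold change -0.57, SE 0.10, adjusted p = 0.000719) and AGA (-0.52) fell. Rescaling gave 5 higher and 3 lower, beside 12.7% of all genes higher and 15.4% lower, with GLA at an adjusted p of 0.0516. The fall of AGA against ALG6/UGGT2-/- cells (adjusted p = 0.0349) was lost without replicate 2 or 3 of either line (adjusted p from 0.0786 to 0.154). Without WT replicate 3 and ALG6-/- replicate 2 the counts were 14 higher and 11 lower against ALG6/UGGT1-/- cells and 10 higher and 12 lower against ALG6/UGGT2-/- cells. Of all genes, 23.2% were then higher and 33.9% lower in the first comparison, and 19.0 and 27.8% in the second.

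Whether the difference between lines without and with UGGT2 itself differed with and without UGGT1 was tested as an interaction. It was triple knockout minus ALG6/UGGT1-/- cells less ALG6/UGGT2-/- minus ALG6-/- cells, each line being 1 clone. It passed for 19 of the 35 members, 11 higher (31.4%, against 20.3% of all genes) and 8 lower (22.9%, against 46.6%). GM2A was 0.84 with UGGT1 absent and -1.45 with UGGT1 present, a difference of 2.29 (SE 0.14, adjusted p = 3.6e-08). MAN2B2 was 1.27 and -0.68 (difference 1.95, SE 0.13, adjusted p = 8.72e-08), and PSAP 0.42 and -1.25 (difference 1.67, adjusted p = 3.13e-07). The difference had the other sign for AGA (-0.63 and 1.59, difference -2.22, adjusted p = 6.35e-06, and -1.12 with the length and GC correction) and ACP2 (-0.72 and 1.45, difference -2.17, adjusted p = 3.19e-08). GALC, at 0 in triple knockout and ALG6-/- cells, has no printed value here. The median over all genes was -0.60 here and -0.08 after rescaling, where 19 members were higher and 5 lower, beside 29.7% and 30.8% of all genes. ARSA changed sign with rescaling and FUCA2 with the length and GC correction. Without WT replicate 3 and ALG6-/- replicate 2, 14 members were higher and 10 lower, beside 22.4% and 47.7% of all genes.

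**Figure D5:**
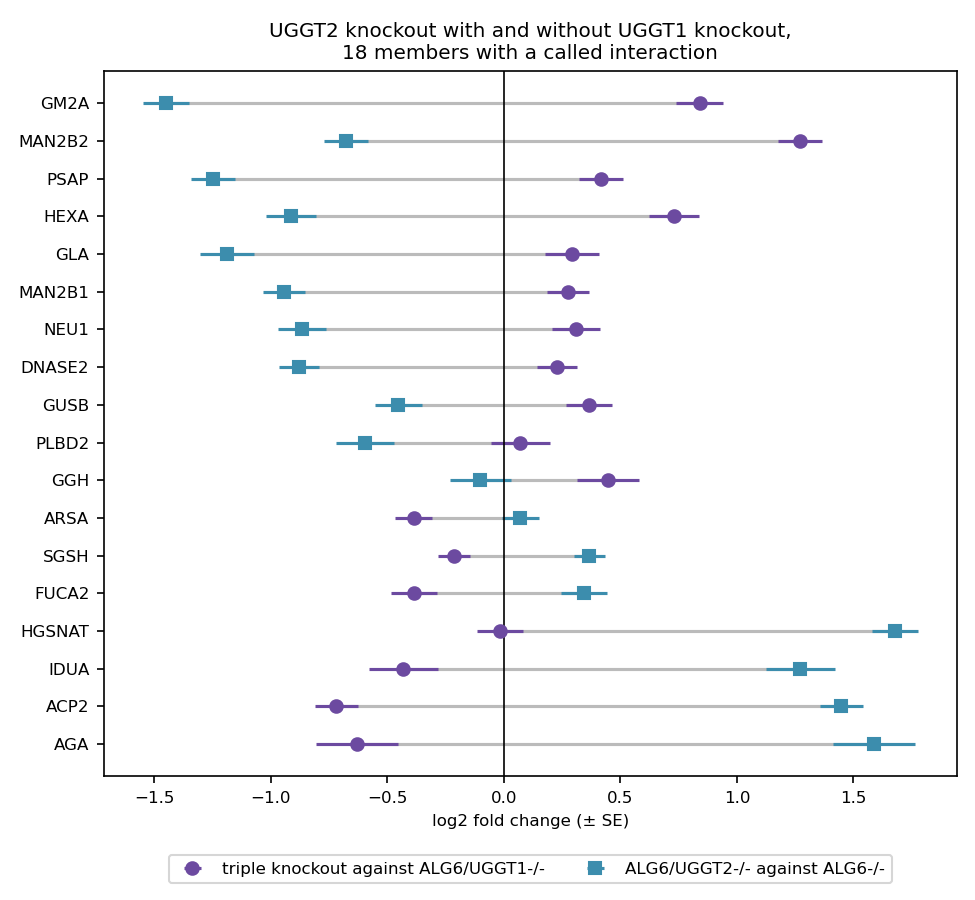
Log2 fold change (± SE) on loss of UGGT2 in cells without UGGT1 (circles, triple knockout against ALG6/UGGT1-/-) and with UGGT1 (squares, ALG6/UGGT2-/- against ALG6-/-) for the 18 members with a called interaction other than GALC. GM2A stood at 0.84 and -1.45, and AGA at -0.63 and 1.59.

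Genes of the wider lysosomal system were counted from lists by function, chosen with earlier results of these data known. Over all genes tested, 15.1% rose and 45.7% fell in ALG6-/- against WT cells (26.6% and 25.6% after rescaling). In triple knockout against WT cells 13.5% rose and 22.0% fell (12.7% and 15.4% after rescaling). These shares are to be read beside the counts that follow. In ALG6-/- against WT cells 9 of 18 lysosomal peptidases rose and 4 fell (13 and 4 after rescaling). Of 20 lysosome membrane proteins and proton pump subunits 10 rose and 4 fell (12 and 2 after rescaling). Of 9 genes for mannose 6-phosphate tagging and sorting 2 rose and 1 fell (5 and 1 after rescaling). Of 9 genes for the MiT/TFE factors and their control 2 rose and 2 fell (3 and 1 after rescaling). Of 14 tested hydrolases that cleave like substrates outside the lysosome 2 rose and 6 fell (3 and 3 after rescaling). In triple knockout against WT cells 8 peptidases rose and 3 fell (6 and 2 after rescaling), 8 membrane genes rose and 0 fell (8 and 0), 2 sorting genes rose and 2 fell (1 and 0), 1 MiT/TFE gene rose and 1 fell (3 and 0), and 3 hydrolases outside the lysosome rose and 1 fell (1 and 1). Chosen after its values were seen, LAMP1, a major lysosomal membrane glycoprotein, averaged 142 CPM in ALG6-/- cells and 65.7 CPM in WT cells (log2 fold change 1.10, SE 0.09, adjusted p = 9.25e-07). It rose most among the called genes of its list, in which ATP6V1B2 (-0.93), ATP6V1C1 (-0.85), SLC38A9 (-0.76) and CTNS (-0.61) fell. TFEB, chosen in the same way, averaged 35.1 CPM in ALG6-/- cells and 16.1 CPM in WT cells (1.10, SE 0.09, adjusted p = 8.15e-07). It was not called against WT cells in the other 3 edited lines. RRAGC, a subunit of the GTPase that holds TFEB at the lysosome, averaged 9.82 CPM in ALG6-/- cells and 22.1 CPM in WT cells (-1.20, SE 0.23, adjusted p = 0.000693). LAMP1, TFEB and RRAGC kept direction and call under rescaling, quantile normalization and the length and GC correction. RRAGD, a paralogue of RRAGC, averaged 38.8 CPM in ALG6-/- cells and 22.2 CPM in WT cells (0.74, adjusted p = 0.0251), and FLCN, which acts on these GTPases, 31 CPM in ALG6-/- cells and 42.3 CPM in WT cells (-0.45, adjusted p = 0.00026). RRAGD kept direction and call in those alternatives, and FLCN lost its call with rescaling and quantile normalization.

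In 11 members another gene with a mean of at least 1 CPM overlaps in the annotation, on the same strand for HYAL2 (TUSC2) and GLB1 (TMPPE) and on the other strand for the rest, with RPL36A over GLA the most abundant. Libraries were made with a directional kit, but whether the counting used strand is not given in the sources used here, so values of these members may hold reads of their neighbours.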

How the data were processed

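RNAseq was measured in 5 HEK293-EBNA1-6E lines. Poly(A) libraries were sequenced as paired 76-base reads, and 4 lanes per library (60 lane samples) were combined into 15 columns. The authors aligned reads to hg38 with STAR, quantified transcripts with RSEM and deposited CPM values made with edgeR (versions and annotation not given in the sources used here). Of the values, 90.4 to 91.1% were whole reads within 0.02, so no count test was run. Of the gene names 28 had turned into dates, and 8 columns without a header were not used. Lengths, GC content and positions are from GENCODE 44 (GRCh38), matched by symbol (24926 directly, 1082 by a synonym).

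limma 3.58.1 in R 4.3.3 fitted log2(CPM + 0.5) with line as factor, a variance trend and 10 residual degrees of freedom, for genes that reached 1 CPM in 3 or more libraries. The method was tested on simulated data. Replicates are labelled biological, and the study describes independent experiments. No 2 libraries agreed within counting noise. Alternatives were pseudocounts of 0.1 and 2, no filter, a mean of at least 5 CPM, median ratio rescaling, quantile normalization, only the lines compared, the replicate block, each replicate left out, no variance trend and a spline correction (5 degrees of freedom) for length and GC content. Leaving out WT replicate 3 with ALG6-/- replicate 2 was added after the values were seen. Per comparison, up to 3 members per direction with the largest called change, separate replicates (not asked of the interaction) and a mean of 5 CPM or more in the higher line were named in full. Others are named to complete each role. The members and lists were chosen with earlier results of these data known. Python 3.11.15, NumPy 2.4.6, pandas 2.3.3 and SciPy 1.17.1 were used.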

Additional observations from a re-analysis of the deposited data

Results flagged for a closer look

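The effect of losing UGGT2 differed between cells with and without UGGT1, by limma's test of the interaction over 3 replicates per line, for 19 of the 35 members (54.3%), a smaller share than the 9830 of 14692 genes tested. The 5 named members with printed fold changes had differences of 2.29 (GM2A), 1.95 (MAN2B2), 1.67 (PSAP), -2.17 (ACP2) and -2.22 (AGA) on the log2 scale. Over all genes the median of this difference was -0.60. The ALG6-/- libraries, which stood apart with median ratios of 0.669 to 0.916, enter it on 1 side, and after median ratio rescaling the 5 differences were 2.85, 2.51, 2.24, -1.61 and -1.68, all still past the threshold. AGA was at -1.46 with quantile normalization and at -1.12 with the length and GC correction. Each genotype is 1 clone, so the interaction cannot be told apart from differences between clones.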

How the results depend on the processing

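The 11 counts of called members were recomputed under 26 alternatives, of which 1 was added after the values were seen. Median ratio rescaling gave 6 called members in place of 12 in ALG6/UGGT1-/- against WT cells, 4 in place of 7 in ALG6/UGGT2-/- against WT cells, 11 in place of 21 in triple knockout against ALG6/UGGT1-/- cells and 8 in place of 15 against ALG6/UGGT2-/- cells. In the same order rescaling called 7.35, 3.27, 19.9 and 12.7% of all genes higher and 8.29, 3.59, 20.9 and 15.4% lower. Fitting only the lines compared gave 3 in ALG6/UGGT2-/- against WT cells and 24 in triple knockout against ALG6/UGGT2-/- cells. The length and GC correction gave 19 in triple knockout against WT cells (12 without it), 26 against ALG6/UGGT2-/- cells and 31 for the interaction (19 without it). It called 25.6% of all genes higher and 22.5% lower in triple knockout against WT cells. Against ALG6/UGGT2-/- cells it called 25.6 and 22.9%, and for the interaction 36.7 and 33.1%. Without it these shares were 13.5 and 22.0%, 14.2 and 21.7%, and 20.3 and 46.6%. Other counts stayed within 1.5 times in the alternatives that did not leave out a single replicate. With each replicate left out in turn, 24 to 33 members differed among the lines, and the counts ran from 20 to 24 in ALG6-/-, 8 to 15 in ALG6/UGGT1-/-, 4 to 8 in ALG6/UGGT2-/- and 8 to 16 in triple knockout cells against WT. Against ALG6-/- cells they ran from 20 to 26 (ALG6/UGGT1-/-), 19 to 22 (ALG6/UGGT2-/-) and 18 to 23 (triple knockout). For the triple knockout they ran from 14 to 24 against ALG6/UGGT1-/- and 10 to 19 against ALG6/UGGT2-/- cells, and for the interaction from 18 to 23. The lowest count, 4, came without ALG6/UGGT2-/- replicate 2. Shares of all genes are not given here for the left-out replicates or for fitting only the lines compared. A shift of these counts cannot be told apart from a shift over all genes.

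Same-numbered replicates deviated together (correlation over 0.1) in 14 of 30 pairs, and 6 of 15 samples correlated best with their own number. The numbers were therefore not taken to pair the samples. Replicate 1 of ALG6/UGGT1-/- and of ALG6/UGGT2-/- cells deviated with WT replicate 3 (correlation 0.80 and 0.75). Their correlations with ALG6-/- replicate 2 were 0.70 and 0.79. The alternative without WT replicate 3 and ALG6-/- replicate 2 still held both of them. With the replicate block 28 members differed among the lines, 21 were called in ALG6-/- against WT cells and 10 in triple knockout against WT cells (12 without the block). The shares of all genes with the block are not given here. Of 56 fold changes named by the rule (GALC only in ALG6/UGGT2-/- against WT cells), 45 kept direction and call in every alternative run, and none turned round: of 1455 values, 1408 kept the call and 47 lost it. The 47 belonged to ARSB, GLA, SMPD1 and GM2A in ALG6/UGGT1-/-, GAA and GALC in ALG6/UGGT2-/- and NAGLU and HYAL2 in triple knockout against WT cells, and to GAA, AGA and GLA in triple knockout against the double knockouts. GALC has no value with a mean of at least 5 CPM required. The cause was not tested. At a median of 25.1 reads per CPM, GALC (at most 158 reads) had the fewest reads behind its values.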
